A study of Mus musculus with 18 samples.

Results

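A group of genes that mark fibroblasts and other mesenchymal cells was followed through the induction of a chromatin protein. It holds the transcription factor genes Prrx1, Prrx2, Twist1 and Twist2, the growth factor receptor genes Pdgfra and Pdgfrb, the cell surface genes Thy1 and Fap, and the genes of cytoplasmic proteins S100a4 and Vim. They were chosen by name, not by a measured value, and make up 10 of 48440 genes counted in the RNA libraries. All 10 were also found among 21631 protein-coding genes with a RefSeq span on chromosomes 1 to 19 and X (build GRCm38.p6), which served for the chromatin data. In the RNA tests 9 of the 10 passed the filter on low counts, and Fap did not.

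PRRX1 and PRRX2 are paired-related homeodomain factors of embryonic mesenchyme, and TWIST1 and TWIST2 are basic helix-loop-helix factors that pair with E proteins and help keep mesenchymal and dermal progenitors from differentiating. PDGFRA and PDGFRB are receptor tyrosine kinases through which platelet-derived growth factors drive the growth and migration of fibroblasts and pericytes. THY1 (CD90) is a surface glycoprotein anchored in the membrane by a lipid, FAP is a membrane serine protease found on activated fibroblasts, S100A4 is a calcium-binding protein also called fibroblast-specific protein, and vimentin is the intermediate filament protein of mesenchymal cells. MacroH2A2 is a histone variant that carries a large macro domain outside the nucleosome and is mostly found on genes that are not transcribed.

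The cells were dermal fibroblasts from newborn male 129/S6 mice, immortalized with SV40, at passages 20 to 30, in which both macroH2A genes are knocked out and a macroH2A2-GFP transgene is induced by doxycycline. Every macroH2A2 and RNA group carried the double knockout and the transgene. RNA was sequenced from poly(A) selected, strand-specific libraries in 3 samples each without doxycycline (0h) and after 6h and 24h with doxycycline at 0.5 ug/ml. No RNA sample was taken at 6h or 24h without doxycycline, or with doxycycline in cells without the transgene. Doxycycline, macroH2A2-GFP and time in culture therefore cannot be told apart in the RNA comparisons. Chromatin was precipitated through the GFP tag in 1 library each at 0h, 6h, 24h and 5 days (5d), at 24h with the transcription elongation inhibitor flavopiridol (0.5 uM) over the last 18 h, and, in cells kept for 10 days in GSK126 (5 uM), an inhibitor of the histone methyltransferase EZH2, at 6h and 24h of doxycycline. H2A.Z, another histone variant, was precipitated in 1 library from wild-type primary newborn female dermal fibroblasts at passage 0 to 1, which are other cells of the other sex. The labels do not say that the 3 RNA samples of a time came from separate cultures, so p-values measure the spread between these samples.

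RNA libraries held 29338093 to 37793178 counts over genes. The transcript of the induced gene, H2afy2, stood at 15.1 ± 8.80 CPM (counts scaled to library size) at 0h, 820.2 ± 14.3 at 6h and 1727 ± 13.8 at 24h (SD, n = 3). As for the labelled cell type, Vim and the collagen gene Col1a1 stood at 4506 and 3199 CPM in the mean at 0h, whereas Fap, Lum, Pdpn, Dpp4 and Mfap5, markers of dermal fibroblasts as well, had 4 to 23 counts in all 9 libraries together. The defining markers Krt5 and Krt1 of keratinocytes, Cldn5 and Emcn of endothelium, Adgre1 and Lyz2 of macrophages, Sox10 and Dct of Schwann cells and melanocytes, and Myod1 and Myog of muscle had 0 counts. The 7 markers of pericytes and smooth muscle summed to 1179 to 1213 CPM at 0h, 1612 to 1657 at 6h and 1145 to 1161 at 24h, mostly through Acta2. Among the others Cspg4, Mcam and Notch3 stood at 159.9, 59.6 and 5.69 CPM in the mean at 0h. Rgs5, Des and Myh11 had 14, 47 and 52 counts in all. The part of these 7 markers in the 6h results was not tested. In such bulk samples fewer cells of a type and less RNA per cell cannot be told apart.

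At 6h most of the identity genes were lower than at 0h, and at 24h most did not pass the test against 0h. Of the 9 tested, 6 fell at 6h (Prrx2, Pdgfrb, S100a4, Twist2, Twist1 and Vim), 2 rose (Thy1 and Prrx1) and Pdgfra did not pass the test. Over all 13785 genes tested, 39% passed at 6h, 20.8% upward and 18.2% downward. Between 6h and 24h 5 rose (Prrx2, Pdgfrb, S100a4, Twist2 and Vim), 2 fell (Thy1 and Prrx1), and Twist1 and Pdgfra did not pass, against a background of 36.1% of all genes, 17.4% upward and 18.8% downward. At 24h against 0h only Thy1 (higher) and Pdgfrb (lower) passed, 2 of 9, where 7.04% of all genes did, 4.17% upward and 2.87% downward. Their median log2 change was -0.19 at 6h and -0.02 at 24h, beside 0.01 and 0.00 over all genes tested. The 6h and 24h comparisons share the 0h libraries, and the 24h and 6h comparison shares libraries with both.

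**Figure D1:**
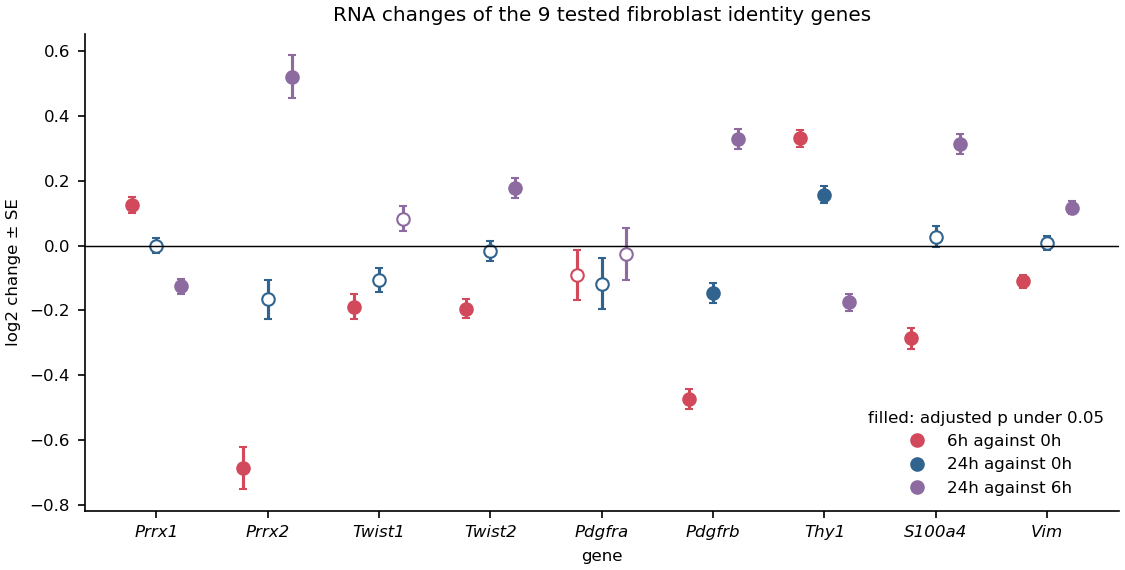
Log2 change of each tested identity gene with its standard error (vertical axis) for 6h against 0h, 24h against 0h and 24h against 6h, 3 libraries a time; filled points passed edgeR's test at an adjusted p under 0.05. Prrx2 and Pdgfrb lie lowest at 6h (-0.69 and -0.47) and Thy1 highest (0.33), and the 24h against 0h points lie between -0.17 and 0.16.

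Prrx2 had the largest change at 6h among the identity genes and its relative Prrx1 went the other way. Prrx2 (ENSMUSG00000039476) spans chr2:30845064-30881251, 36.2 kb. Its level was 28.7, 27.0 and 28.2 CPM in the 0h libraries, 17.3, 16.5 and 18.4 CPM at 6h and 23.4, 23.0 and 28.3 CPM at 24h. All 3 libraries at 6h lay under all others, while at 24h the third library lay within the range of the 0h libraries and the other 2 below it. The log2 change was -0.69 ± 0.064 (SE) at 6h (adjusted p 1.3e-09), 0.52 ± 0.066 from 6h to 24h (adjusted p 3.3e-07) and -0.17 ± 0.061 at 24h against 0h, which did not pass (adjusted p 0.105). Without the third 24h library the last value was -0.27 with an adjusted p of 0.00356.

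Prrx1 (ENSMUSG00000026586), at chr1:163245119-163315145 over 70.0 kb, encodes the family member that is more widely used as a mesenchymal marker. It stood at 235.8, 235.1 and 235.6 CPM at 0h, 258.1, 257.2 and 255.7 CPM at 6h and 237.8, 232.9 and 235.7 CPM at 24h. The 3 libraries at 6h were above all others, and those at 24h enclosed the 0h values. Its log2 change was 0.13 ± 0.024 at 6h (adjusted p 1.1e-04), -0.13 ± 0.024 from 6h to 24h (adjusted p 1.4e-04) and 0.00 ± 0.024 at 24h against 0h (adjusted p 0.999), a value whose sign depends on the scaling.

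Within each library the counts of the 2 paralogues can be set against each other, which leaves out the scaling between libraries. Prrx2 counts were 0.122, 0.115 and 0.120 of the Prrx1 counts at 0h, 0.0669, 0.0641 and 0.0722 at 6h and 0.0984, 0.0988 and 0.120 at 24h. The ratio at 6h lay below that at 0h in every library, by 0.81 on the log2 scale (exact two-sided permutation p 0.1, the smallest that 3 libraries against 3 allow; adjusted over 9 such comparisons 0.225).

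**Figure D2:**
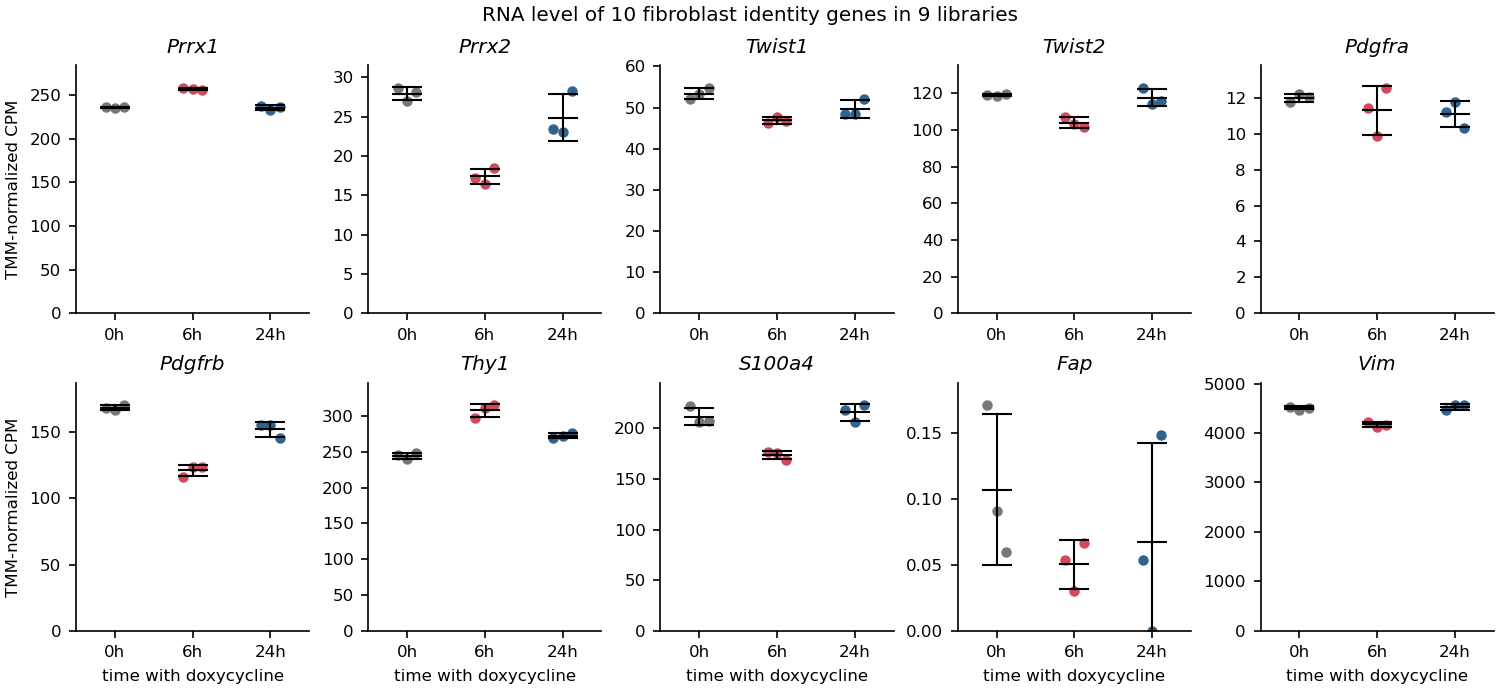
RNA level in TMM-normalized CPM (vertical axis, from 0) of the identity genes in each of 9 libraries by time with doxycycline; points are libraries, long dashes the mean and bars the SD over 3 libraries. Prrx2, Pdgfrb and S100a4 have their 3 lowest libraries at 6h and Thy1 and Prrx1 their 3 highest, while Fap is at most at 0.171 CPM.

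Both TWIST genes fell at 6h, each by 0.19 on the log2 scale. Twist1 (ENSMUSG00000035799) spans only 2.16 kb at chr12:33957671-33959831. It read 52.12, 53.29 and 54.8 CPM at 0h, 46.17, 47.71 and 46.75 CPM at 6h and 48.35, 48.42 and 52.06 CPM at 24h. The times did not overlap, with 6h lowest, but the highest 24h library came close to the lowest at 0h. The log2 change was -0.19 ± 0.038 at 6h (adjusted p 2.0e-04). It was -0.11 ± 0.038 at 24h against 0h (adjusted p 0.0917, and 0.0370 without the third 24h library, where it was -0.14), and 0.08 ± 0.038 from 6h to 24h (adjusted p 0.0958).

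Twist2 (ENSMUSG00000007805), a gene of 46.6 kb at chr1:91801461-91848034 that is also called Dermo1, read 118.9, 118.8 and 119.9 CPM at 0h, 107.3, 103.2 and 101.9 CPM at 6h and 123.1, 114.3 and 115.8 CPM at 24h. All 6h libraries lay below all others and the 24h libraries lay on both sides of the 0h level. Its log2 change was -0.19 ± 0.031 at 6h (adjusted p 8.6e-06), 0.18 ± 0.031 from 6h to 24h (adjusted p 3.7e-05) and -0.02 ± 0.030 at 24h against 0h (adjusted p 0.834). Counted without regard to strand Twist2 had 1515 to 2363 counts a library, against 3043 to 4553 on its own strand. The Twist2 to Twist1 ratio of counts was 2.28, 2.23 and 2.19 at 0h and 2.32, 2.16 and 2.18 at 6h, and these overlapped (difference -0.01 on the log2 scale, exact permutation p 0.8). With unstranded counts the ratio was 1.20, 1.14 and 1.13 at 0h and 1.17, 1.16 and 1.08 at 6h, so its size depends on the counting (log2 difference -0.02). Whether a gene overlaps Twist2 on the other strand was not tested.

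**Figure D3:**
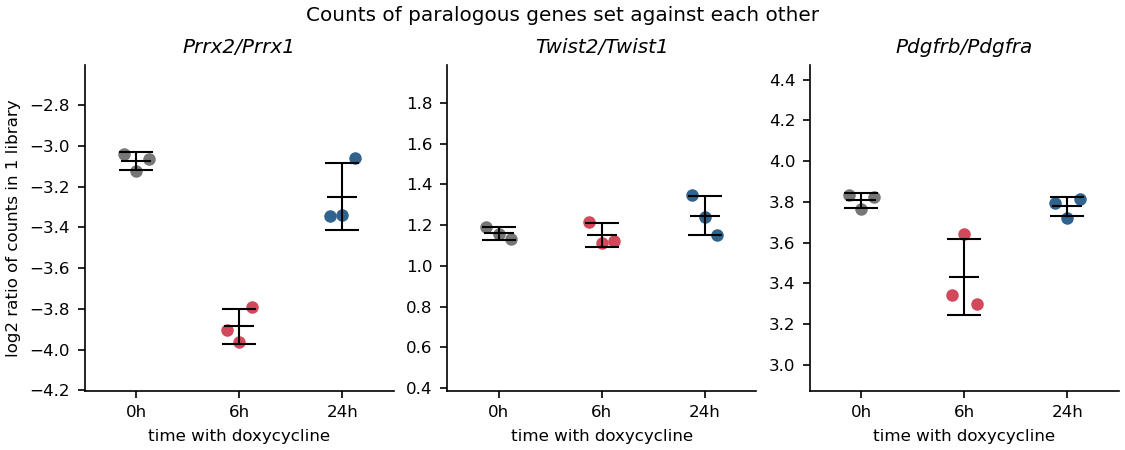
Log2 ratio of counts within each library (vertical axis, each panel spanning the same 1.6 log2 units) for Prrx2 to Prrx1, Twist2 to Twist1 and Pdgfrb to Pdgfra by time; points are libraries, dashes the mean and bars the SD. The first and last ratios are lower at 6h than at 0h in all 3 libraries (by 0.81 and 0.38) and the Twist ratio overlaps between 0h and 6h.

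The start regions of both TWIST genes are shown with those of S100a4 and Vim. These 4 were picked as examples that differ in base composition or in the H2A.Z map described further on. Start regions were also at hand for Prrx1, Prrx2 and Pdgfra and are not printed. Each line gives the 250 bases before the start in RefSeq (GRCm38.p6, all on the plus strand), at chr12:33957421-33957670 for Twist1, chr1:91801211-91801460 for Twist2, chr3:90603520-90603769 for S100a4 and chr2:13574061-13574310 for Vim. Capitals mark matches on either strand to GGGCGG, the GC box, and to TATAAA, the TATA box.
Twist1: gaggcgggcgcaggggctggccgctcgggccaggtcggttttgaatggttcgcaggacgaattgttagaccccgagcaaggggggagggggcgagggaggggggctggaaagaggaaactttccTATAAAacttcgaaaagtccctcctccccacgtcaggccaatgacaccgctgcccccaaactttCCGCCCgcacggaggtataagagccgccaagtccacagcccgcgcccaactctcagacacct
Twist2: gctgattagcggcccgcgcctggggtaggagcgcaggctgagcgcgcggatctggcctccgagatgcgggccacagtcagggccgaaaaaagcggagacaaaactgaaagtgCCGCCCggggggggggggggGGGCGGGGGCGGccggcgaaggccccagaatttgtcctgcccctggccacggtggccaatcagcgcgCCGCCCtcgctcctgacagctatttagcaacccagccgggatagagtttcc
S100a4: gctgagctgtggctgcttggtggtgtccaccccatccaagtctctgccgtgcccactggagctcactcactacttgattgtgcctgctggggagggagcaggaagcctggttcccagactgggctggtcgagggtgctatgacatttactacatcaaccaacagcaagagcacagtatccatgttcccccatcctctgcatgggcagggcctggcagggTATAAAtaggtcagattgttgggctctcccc
Vim: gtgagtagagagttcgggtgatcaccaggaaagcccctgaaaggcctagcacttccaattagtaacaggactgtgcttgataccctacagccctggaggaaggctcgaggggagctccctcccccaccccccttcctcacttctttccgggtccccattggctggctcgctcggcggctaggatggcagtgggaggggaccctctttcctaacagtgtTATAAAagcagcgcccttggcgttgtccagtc
Twist2 held 4 GC boxes, 2 of them side by side, and no TATA box, Twist1 held 1 of each, and S100a4 and Vim held 1 TATA box and no GC box. Of 27025 mouse promoters of the same length in RefSeq 32.9% held a GC box and 13.0% a TATA box. Neither the E-box CANNTG, the kind of site that TWIST proteins bind, nor the AP-1 site TGANTCA was found in any of the 4 windows, and 66.0% and 6.87% of all promoters held one. Among the start regions not printed, Pdgfra held 1 E-box and Prrx2 held 2 GC boxes. Their GC content was 70.0% for Prrx2, 54.4% for Pdgfra and 47.6% for Prrx1. In the 4 printed windows the GC content was 62.4% for Twist1, 68.8% for Twist2, 57.2% for S100a4 and 58.4% for Vim, with a median of 52.0% over all promoters. They held 18, 23, 2 and 8 CG dinucleotides, with a median of 6 over all promoters.

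Genes fixed as partners, antagonists and fellow mesenchymal factors of TWIST and PRRX proteins numbered 29, of which 21 were tested. At 6h 4 rose and 7 fell, where 20.8% and 18.2% of all genes tested did, with a list median of -0.06. Snai2, which encodes the SLUG repressor, fell by 0.31, Zeb1 by 0.23 and the E protein gene Tcf4 by 0.19, while Zeb2, the paralogue of Zeb1, rose by 0.17. Only falls passed at 24h against 0h, those of Osr1, Runx1 and Id1, where 2.87% of all genes fell and 4.17% rose. Tcf21, Meox1 and Meox2, mesenchymal factor genes of other body regions, had 0 counts in the 9 libraries.

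Of the PDGF receptor genes, Pdgfrb fell at 6h and was still lower at 24h, and Pdgfra passed no test. Pdgfrb (ENSMUSG00000024620, chr18:61045127-61085067, 39.9 kb) read 168.1, 166.4 and 170.1 CPM at 0h, 116.4, 123.4 and 123.7 CPM at 6h and 155.4, 155.2 and 145.3 CPM at 24h. The 3 times did not overlap, with 24h between 6h and 0h. The log2 change was -0.47 ± 0.031 at 6h (adjusted p 7.7e-13), -0.15 ± 0.030 at 24h against 0h (adjusted p 0.00202) and 0.33 ± 0.031 from 6h to 24h (adjusted p 1.8e-09).

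Pdgfra (ENSMUSG00000029231, chr5:75151322-75198206, 46.9 kb), the receptor gene that marks most dermal fibroblasts in the skin, read 11.78, 12.23 and 12.03 CPM at 0h, 11.46, 9.883 and 12.56 CPM at 6h and 11.2, 11.75 and 10.33 CPM at 24h. The 6h libraries overlapped with both other times, and the 24h libraries all lay below the 0h libraries, by little. Its log2 changes were -0.09 ± 0.078, -0.12 ± 0.078 and -0.03 ± 0.079 for 6h against 0h, 24h against 0h and 24h against 6h (adjusted p 0.395, 0.453 and 0.835), standard errors that are the largest among the tested identity genes. At 6h against 0h the value was -0.0043 without the second 6h library and -0.17 without the third, and at 24h against 0h it was -0.067 without the third 24h library, none of which passed. The Pdgfrb to Pdgfra ratio of counts was 14.3, 13.6 and 14.2 at 0h, 10.2, 12.5 and 9.85 at 6h and 13.9, 13.2 and 14.1 at 24h, lower at 6h than at 0h in every library (log2 difference -0.38, exact permutation p 0.1, adjusted 0.225).

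Of 17 genes of PDGF ligands, the receptor-like protein and intracellular signalling, 15 were tested. At 6h 7 passed, all of them lower, with a list median of -0.08. Over all genes tested 39% passed at 6h, 18.2% downward and 20.8% upward. The largest falls were those of Pdgfrl, a receptor-like gene, by 0.26, the docking protein gene Gab1 by 0.26, the PI3-kinase subunit gene Pik3r1 by 0.19 and the adaptor gene Shc1 by 0.17. From 6h to 24h 7 rose and 1 fell, where 17.4% and 18.8% of all genes did. At 24h against 0h Src alone passed, at 0.12, where 7.04% of all genes did. The ligand genes Pdgfa and Pdgfc passed no test (log2 -0.08 and -0.02 at 6h), and Pdgfb and Pdgfd had 38 and 22 counts in all 9 libraries.

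Thy1 was the identity gene that rose most and the one that stayed higher. Thy1 (ENSMUSG00000032011, chr9:44043384-44048579, 5.20 kb) read 245.3, 239.7 and 248.1 CPM at 0h, 296.5, 311.5 and 314.6 CPM at 6h and 269.2, 272.2 and 275.8 CPM at 24h. The 3 times did not overlap, with 24h in the middle. Its log2 change was 0.33 ± 0.026 at 6h (adjusted p 5.6e-11), 0.16 ± 0.027 at 24h against 0h (adjusted p 2.3e-04) and -0.17 ± 0.026 from 6h to 24h (adjusted p 5.7e-06).

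Fap (ENSMUSG00000000392, chr2:62500936-62575509, 74.6 kb) had 6, 3 and 2 counts in the 0h libraries, 2, 1 and 2 at 6h and 2, 0 and 5 at 24h, 23 in all. These counts overlapped between times and are near the floor of 3 counts that a count of 0 allows, so no change could be seen at this depth. Of its relatives among the dipeptidyl peptidase genes Dpp7 fell by 0.17 and Dpp9 by 0.13 at 6h, the prolyl endopeptidase gene Prep rose by 0.10, and Dpp8 did not pass (log2 -0.06). Among all genes tested 20.8% rose and 18.2% fell at 6h. Dpp4, Dpp6 and Dpp10 had 13, 1 and 2 counts.

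Among 23 other surface and matrix markers of fibroblasts 17 were tested, of which 6 rose and 7 fell at 6h, with a list median of -0.08. Over all genes tested 20.8% rose and 18.2% fell. Postn, the matricellular protein periostin, rose by 1.52 and the hyaluronan receptor gene Cd44 by 0.43, while Dpt fell by 0.52 and Ly6a (SCA-1) by 0.32. At 24h against 0h 1 rose and 7 fell, the former being Ly6a at 0.16, where 4.17% of all genes rose and 2.87% fell.

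S100a4 fell at 6h and rose again by 24h. S100a4 (ENSMUSG00000001020, chr3:90603770-90606045, 2.28 kb) read 221.5, 206 and 207 CPM at 0h, 176.1, 175.9 and 168.5 CPM at 6h and 218.2, 206 and 222.5 CPM at 24h. The 6h libraries lay below all others, and 0h and 24h overlapped. The log2 change was -0.29 ± 0.032 at 6h (adjusted p 3.0e-08), 0.31 ± 0.032 from 6h to 24h (adjusted p 6.3e-09) and 0.03 ± 0.031 at 24h against 0h (adjusted p 0.704).

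Of 13 other S100 genes 9 were tested. At 6h S100a7a rose by 0.21, and S100a1 and S100a11 fell by 0.29 and 0.10, where 20.8% of all genes rose and 18.2% fell. The genes on either side of S100a4 on the chromosome, S100a3 and S100a5, had log2 values of -0.52 and 1.05 at 6h that did not pass (adjusted p 0.0527 and 0.0538), at 1.40 and 0.176 CPM in the mean at 0h. At 24h against 0h S100a6 rose by 0.16 and S100a10 by 0.10, where 4.17% of all genes rose. From 6h to 24h 6 rose and 1 fell, where 17.4% and 18.8% of all genes did.

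Among the identity genes that passed at 6h, Vim changed by the smallest amount. Vim (ENSMUSG00000026728, chr2:13574311-13582826, 8.52 kb) read 4532, 4472 and 4513 CPM at 0h, 4232, 4123 and 4164 CPM at 6h and 4466, 4558 and 4557 CPM at 24h. The 6h libraries lay below all others, and 0h and 24h overlapped. The log2 change was -0.11 ± 0.021 at 6h (adjusted p 1.3e-04), 0.12 ± 0.021 from 6h to 24h (adjusted p 7.7e-05) and 0.01 ± 0.021 at 24h against 0h (adjusted p 0.918). Of 11 other genes of intermediate filaments and their linkers 7 were tested. Lmna, Plec and Lmnb1, the genes of lamin A, plectin and lamin B1, fell at 6h by 0.19, 0.16 and 0.11, and Nes, the gene of nestin, rose by 0.24. At 6h 20.8% of all genes tested rose and 18.2% fell. Lmna, Plec, Nes and Synm fell at 24h against 0h and none of the list rose, where 2.87% of all genes fell and 4.17% rose.

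Over the 9 libraries the genes with the most similar profile were found by the root mean square distance between centred log2 CPM, among 8710 genes with a mean of at least 10 CPM, as a description of these libraries. For Prrx2 they were Dusp8, a MAP kinase phosphatase gene (distance 0.0692; log2 -0.66 at 6h), and Nfatc4 (0.0941; -0.62). For Pdgfrb they were Col4a5, a basement membrane collagen gene (0.0432; -0.45), and the deacetylase gene Hdac5 (0.0439; -0.51). Thy1 was nearest to Tsr2 (0.0322) and the nucleolar methyltransferase gene Fbl (0.0371), S100a4 to Vezf1 (0.0302) and Slc30a4 (0.0378), and Vim to Oxct1 (0.0153) and Ddx5 (0.0156). Twist1 was nearest to Gnb2 and Nacc1, Twist2 to Slmap and Inppl1, and Prrx1 to Abce1 and Txnrd1, at distances of 0.0138 to 0.0255.

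The chromatin data are lists of regions that SICER called enriched, with 200-bp windows joined over gaps of up to 800 bp. The measure used is the share of a gene's span inside regions, its coverage. Each condition is 1 library, so differences are between libraries and carry no replicate check. The 7 macroH2A2-GFP lists held 28980 to 79959 regions over 201.0 to 392.2 Mb, the fewest at 0h. The 0h list comes from cells given no doxycycline.

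Among the identity genes Prrx2 had the highest coverage at 6h, at 24h and with flavopiridol. Its coverage was 8.29% at 0h, 53.6% at 6h, 42.1% at 24h and 7.74% at 5d, then 84.7% at 24h with flavopiridol, 39.1% at 6h with GSK126 and 4.42% at 24h with GSK126. The 0h, 5d and 24h GSK126 libraries each had 1 region inside the gene, near its middle. Of 100 genes next to Prrx2 in 0h RNA level, 50 above and 50 below, 1 was covered further than Prrx2 at 24h, 1 with flavopiridol and 11 at 6h, and their medians were 0, 0 and 3.85%. The gene next below in RNA level, Gemin7, and next above, Dnlz, had no macroH2A2 region over them in any library. A region that ended within 0.063 kb of the lower end of Prrx2, or ran across it, was present in all 7 libraries.

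Prrx1 had 22.3% of its span in regions at 6h, 24.3% at 6h with GSK126 and 6.00% with flavopiridol at 24h, and 0 in the other 4 libraries. Those at 6h fell in separate stretches inside the gene. Of its 100 genes of like RNA level 45 were covered further at 6h, with a median of 18.2%, so Prrx1 stood near the middle of them. Beyond its upper end a region began within 2.655 kb, or ran across that end, in all 7 libraries.

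Pdgfrb stood out in the flavopiridol library. Its coverage was 0 at 0h, 6.51% at 6h, 0 at 24h and 5d, 82.3% at 24h with flavopiridol, 46.1% at 6h with GSK126 and 0 at 24h with GSK126. Between flavopiridol and none at 24h it was the only identity gene to differ by 50 points or more in either direction, as 3.97% of all protein-coding genes did. Of its 100 genes of like RNA level 3 were covered further with flavopiridol (median 0), while at 6h 67 were covered further (median 26.5%). The next gene below in RNA level, Zc3h18, had 12.2% with flavopiridol and the next above, Kmt2a, had 0. RNA was not measured with flavopiridol or GSK126, so these coverages have no RNA value beside them.

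Pdgfra had 4.69% at 6h, 1.02% at 5d and 6.99% with flavopiridol, and 0 in the other 4 macroH2A2 libraries. The 300-bp window around its RefSeq start, 250 bases before to 50 after, lay wholly inside a region at 6h and with flavopiridol. Among 27025 promoter windows that holds for 9.8% and 10.9%. Of its genes of like RNA level 54 of 100 were covered further at 6h and 43 of 100 with flavopiridol.

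Neither TWIST gene had a single base inside a macroH2A2 region in any of the 7 libraries. Twist1 is short, but Twist2 at 46.6 kb is longer than Prrx2 or Pdgfrb. At 6h 64 of 100 genes of like RNA level were covered further than Twist1 (median 10.9%) and 72 of 100 further than Twist2 (median 14.8%). Among 100 genes of like RNA level and of a span within 2-fold, 30 were covered further than Twist1 (median 0). For Twist2 these were 79 of 100 (median 19.5%). Next to Twist2 in RNA level, Eny2 had 85.1% at 6h and Elovl6 had 0. The nearest region below Twist2 ended 2.26 to 68.3 kb from the gene and that below Twist1 0.870 to 62.1 kb, farthest at 0h in both cases. The closest were with flavopiridol for Twist1, and with flavopiridol and at 6h with GSK126 alike for Twist2.

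**Figure D4:**
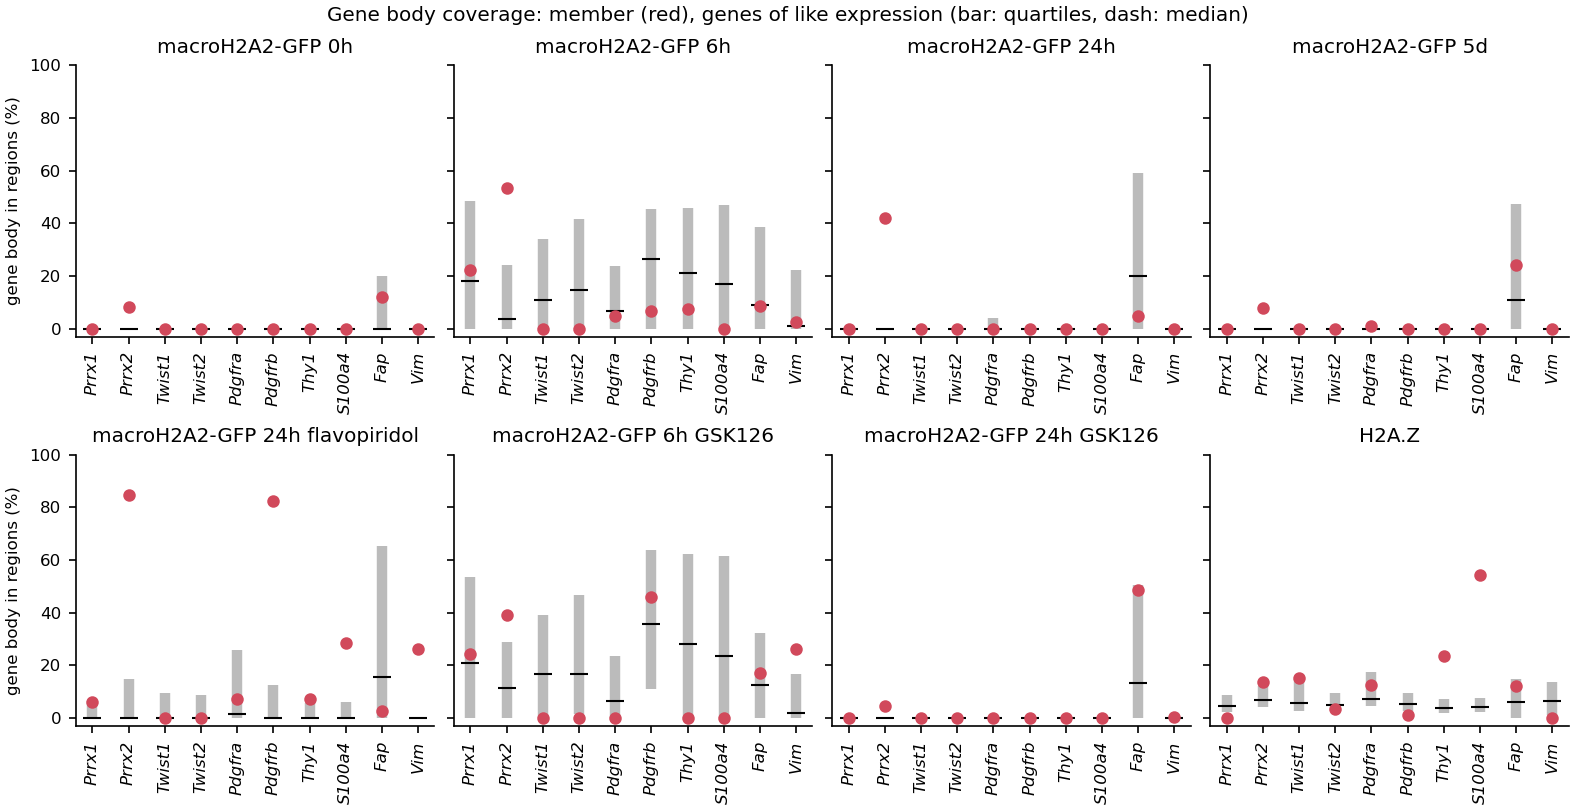
Share of the gene span in called regions (vertical axis, percent) for each identity gene (red) in the 7 macroH2A2-GFP libraries and the H2A.Z library, with the median (dash) and quartiles (bar) of 100 genes of like 0h RNA level, or 53 for Vim. Prrx2 lies at 84.7% and Pdgfrb at 82.3% with flavopiridol, and most other identity genes lie at or near 0 at 0h, 24h, 5d and 24h with GSK126.

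Thy1 and Vim lay in gaps between regions. Thy1 had coverage of 7.29% at 6h and with flavopiridol and 0 in the other 5 libraries, and both values came from the outermost bases at its upper end. In every library a region ended 0.383 to 1.18 kb below the gene and another began at most 3.02 kb above it. Of its 100 genes of like RNA level 60 were covered further at 6h (median 21.0%), and of 100 of like span too, 29 (median 0).

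Vim had 2.65% at 6h, 26.1% both with flavopiridol and at 6h with GSK126, 0.305% at 24h with GSK126 and 0 in the other 3. The region below it ended 2.11 kb from the gene in 6 of 7 libraries and 1.11 kb in the library at 6h with GSK126, and the region above began at most 2.57 kb away or ran into the upper end. Vim is among the genes with the most counts, so that only 53 genes of like level could be set beside it. Of these 5 were covered further with flavopiridol and 9 at 6h with GSK126. The matrix gene next below in RNA level, Fn1, had 0 with flavopiridol and 0.484% at 6h with GSK126.

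Gaps of this kind, with a region in the 10 kb on either side and under 10% of the gene covered, were counted after the maps had been seen. They held for 3 of 10 identity genes at 0h (4.15% of all protein-coding genes), 6 at 6h (8.96%), 4 at 24h (8.87%), 4 at 5d (7%), 1 with flavopiridol (7.88%), 3 at 6h with GSK126 (9.55%) and 4 at 24h with GSK126 (7.4%). Thy1 met the description in 7 libraries, Pdgfrb and Vim in 5 each. With 10 kb added at both ends, the median coverage of the identity genes was 7.98% at 0h, 27.5% at 6h, 14.3% at 24h, 20.9% at 5d and 47.7% with flavopiridol, against 0, 5.60%, 0, 0 and 7.14% without them.

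**Figure D5:**
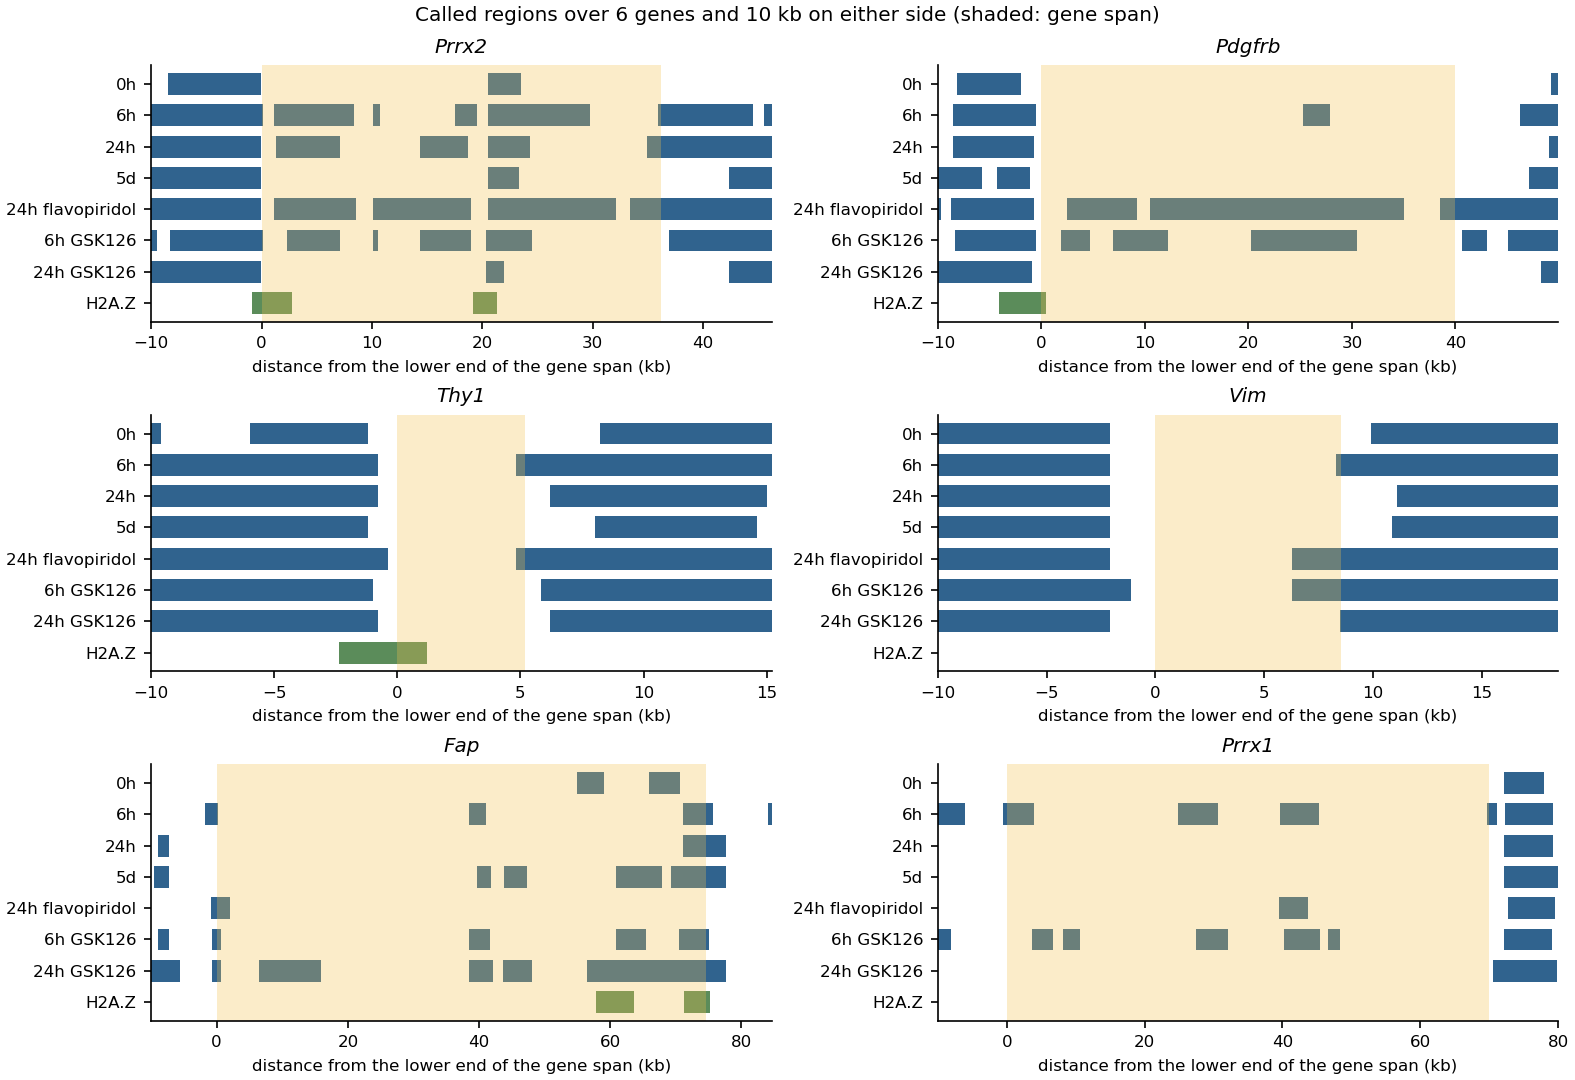
Called regions (bars) in each library over 6 identity genes and 10 kb on either side, with distance from the lower end of the gene span in kb on the horizontal axis and the span shaded; blue is macroH2A2-GFP and green H2A.Z. In every macroH2A2 library regions flank Thy1 and Vim on both sides and leave most of the span free, and with flavopiridol they fill 84.7% of Prrx2 and 82.3% of Pdgfrb.

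S100a4 had 28.3% of its span in regions with flavopiridol and 0 in the other 6 macroH2A2 libraries. Of its 100 genes of like RNA level 10 were covered further with flavopiridol. Its neighbours lie close, S100a5 at 0.434 kb and S100a3 at 1.06 kb. S100a5 was covered to 96.5% with flavopiridol, 26.4% at 6h, 33.9% at 6h with GSK126 and 0 in the other 4, and S100a3 to 16.1% at 0h and 47.2 to 59.0% in the others.

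Fap, like Prrx2, had regions in all 7 macroH2A2 libraries. Its coverage was 12.1% at 0h, 8.55% at 6h, 4.71% at 24h, 24.0% at 5d, 2.77% with flavopiridol, 16.9% at 6h with GSK126 and 48.5% at 24h with GSK126. With only the regions whose score, given by the authors, reached the library median, it was 5.72% at 24h with GSK126. It was then 0 at 24h and with flavopiridol. The positions of the regions varied between libraries, mostly over the upper part of the gene, and with flavopiridol the only region lay across the lower end. Among 100 genes of like RNA level, from 0.0983 to 0.117 CPM at 0h, 61 were covered further at 24h and 28 at 24h with GSK126. It was also the only identity gene whose coverage was lower with flavopiridol than without at 24h (11.7% of all genes were lower).

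Counted over the group, identity genes with 50% or more of their span covered numbered 0 at 0h (background 3.37%), 1 at 6h (11.3%), 0 at 24h (8.78%), 0 at 5d (6.66%), 2 with flavopiridol (11.9%), 0 at 6h with GSK126 (12.4%) and 0 at 24h with GSK126 (5.97%). Genes with no base covered numbered 8 (83.1%), 3 (53.9%), 8 (72.5%), 7 (76.6%), 2 (63%), 5 (49.1%) and 7 (75.2%) in the same order. These backgrounds include genes of low RNA level, whereas every identity gene but Fap stood above 10 CPM at 0h. Among 8703 genes of 10 CPM or more at 0h, 0.299, 14.4, 0.919, 0.425, 6.85, 19.1 and 0.632% were covered to 50% or more, in the same order. No base was covered in 92.1, 40.3, 84.8, 91.1, 63.5, 33.3 and 85.9% of them. From 0h to 6h coverage was higher for 6 identity genes (40.8% of all genes) and lower for Fap alone (5.86%), and from 6h to 24h it was lower for 7 and higher for 0 (32.2% and 16.5%). With flavopiridol 7 were covered further than at 24h without it (26.2%). Differences of 50 points or more in either direction were seen for 0 identity genes at 6h against 0h (8.01%), 24h against 6h (8.3%), 5d against 24h (1.78%), 6h with GSK126 against 6h (2.03%) and 24h with GSK126 against 24h (2.02%). Over 70 pairs of identity gene and macroH2A2 library, coverage was above the median of genes of like RNA level in 24, below it in 14 and equal in 32. With 25 genes on each side in place of 50 it was above in 20, below in 18 and equal in 32. Against genes of like RNA level and span it was above in 21, below in 12 and equal in 37. The median of genes of like RNA level was 0 for every identity gene at 0h, and for all but Fap at 24h, 5d and 24h with GSK126. Coverage could not fall below it there, and any covered base counted as above. The pairs also repeat the same genes, with Prrx2 above that median in every macroH2A2 library.

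Some of the genes next to an identity gene along the chromosome were largely covered and others were not. Beside Thy1, which met the gap description in all 7 libraries, Usp2, 18.4 kb above, was covered to 0 to 44.05%. Nectin1, 235.9 kb below Thy1, was covered to 0 to 27.0%. Trdmt1, 29.5 kb below Vim, was covered to 93.0 to 98.5% in the 7 libraries, and Ptges, the prostaglandin E synthase gene 8.22 kb above Prrx2, to 73.0 to 100%. Ptges stood at 5.49 CPM at 0h and fell by 0.35 at 6h (adjusted p 0.0147). Csf1r, a leukocyte receptor gene 20.5 kb above Pdgfrb, was covered to 33.0 to 65.8% and did not pass the test (log2 -0.20 at 6h).

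In primary fibroblasts H2A.Z regions lay over an end of 8 of the 10 identity genes (56.7% of all protein-coding genes). Prrx1 and Vim had none over any base, 2 of 10, where 32.4% of all genes had none. Among genes of 10 CPM or more at 0h in the immortalized cells that share was 5.01%. Of the identity genes 1 had 50% or more of its span covered (4.75% of all genes, and 2.41% of those of 10 CPM or more). S100a4 had the highest coverage, 54.1%, with none of its 100 genes of like RNA level above it (median 4.19%). Thy1 followed with 23.4% (6 of 100 above). Both are short genes. Among 100 genes of like RNA level and of a span within 2-fold, 12 were covered further than S100a4 (median 21.52%). For Thy1 these were 28 of 100 (median 15.98%). The other identity genes with H2A.Z regions were Twist1 at 15.3%, Prrx2 at 13.6%, Pdgfra at 12.5%, Fap at 12.2%, Twist2 at 3.31% and Pdgfrb at 1.19%. The 300-bp start windows of Twist1, Twist2, S100a4, Prrx2 and Pdgfra lay wholly in H2A.Z regions, as did 43.7% of 27025 promoters, and those of Prrx1 and Vim did not touch one. Of the start regions printed above, the GC-rich Twist pair and S100a4, with 2 CG dinucleotides, thus lay in H2A.Z regions and that of Vim did not.

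With both kinds of data side by side, the largest fall in RNA at 6h was that of Prrx2 (log2 -0.69), which had 53.6% of its span covered at 6h. Pdgfrb, with the next largest fall (-0.47), had 6.51%, and S100a4, Twist2 and Twist1, which fell too, had 0. Prrx1 rose by 0.13 with 22.3% covered. These are 9 genes with 1 chromatin library a time, and no relation between the 2 measures was tested.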

How the data were processed

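The members and the gene lists were chosen with earlier results of these data known. RNA values are counts of reads per gene deposited by the authors for each library, in the column for the strand that holds at least 96.6% of stranded counts. The submitters' processing notes name STAR 2.5.2b, Bowtie 1.1.2 and SICER 1.1, and the genome is GRCm38 per the labels. Between 21.2 and 23.1% of reads lay in rows that name no gene and were left out. Counts were tested with edgeR 4.0.16 (R 4.3.3): low-count filter of filterByExpr, TMM scaling, 1 quasi-likelihood model over all 9 libraries with time as the only term, and Benjamini-Hochberg adjustment over 13785 genes at 0.05. The same fit was also run on counts simulated from the means and spread of these libraries, and its outcome is not given here. Paralogue ratios were compared by exact permutation of libraries.

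ChIP files are region lists deposited by the authors, with a score per region that is the authors' own value and served only for an alternative that keeps regions at or above the median score. Coverage is the percent of a RefSeq gene span inside regions. Genes of like expression are 50 on each side in mean 0h CPM. Input was not analysed here. Region numbers run higher than the regions listed by 3.36 to 16.1% a library, and the regions with those numbers are not analysed here. Named genes were the 10 members, H2afy2, the neighbours on the chromosome and in RNA level, the 2 nearest profiles of each called member, and the called genes of each fixed list with the largest change.

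The alternatives were other scalings (RLE, upper quartile), no filter, DESeq2 1.42.0, only the 6 libraries compared, unstranded counts, a replicate block and leaving out each library, and for coverage trimmed or extended spans, stricter regions, wider windows, other thresholds, and genes of like expression taken as 25 on each side or of like span too. Same-numbered libraries did not deviate together (correlations -0.018 to 0.039), so numbers were not taken to pair samples. No exon lengths were used, so a like RNA level between genes means a like scaled read count. The same holds for ratios of counts between paralogues.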

Additional observations from a re-analysis of the deposited data

Results flagged for a closer look

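RNA levels differed between 6h and 24h for 7 of the 9 tested genes by edgeR's test of 24h against 6h (adjusted p under 0.05). Over all genes 36.1% passed. No culture without doxycycline was sampled at these times, so doxycycline, macroH2A2-GFP and time in culture cannot be told apart. The log2 difference, 24h minus 6h, was 0.52 for Prrx2, 0.33 for Pdgfrb, 0.31 for S100a4, 0.18 for Twist2 and 0.12 for Vim. It was -0.17 for Thy1 and -0.13 for Prrx1. Each of these 7 differences has the sign opposite to that gene's change at 6h. Both comparisons share the 6h libraries, so spread in those libraries pushes the values to opposite signs. Groups of 3 libraries were too small for a search for single libraries that stand apart.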

How the results depend on the processing

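The 8 calls at 6h and the 7 calls from 6h to 24h passed in the same direction under every alternative run, leaving out single libraries included. At 24h against 0h 2 identity genes passed in the main analysis, 2 to 4 when a library was left out (4 without the third 24h library, which adds Prrx2 and Twist1). No paired design holds; with a replicate block 3 passed there, Prrx2 being added (log2 -0.17, adjusted p 0.0485), and over all genes 5435, 1027 and 5036 passed for 6h, 24h and 24h against 6h, against 5377, 971 and 4980. Prrx1 at 24h against 0h changed sign, at -0.0028 with RLE scaling, -0.0063 with upper-quartile scaling, -0.00079 unstranded, -0.0027 with DESeq2 and -0.0073 to 0.010 with a library left out. With a library left out Twist2 at 24h against 0h ranged from -0.051 to 0.0057 and Pdgfra from 6h to 24h from -0.11 to 0.056, and none of these passed. The log2 ratio of Twist2 to Twist1 at 6h ranged from -0.0405 to 0.0115 with a library left out. The cause was not tested.

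Coverage depends on the span used. With 10 kb added at both ends, members 50% or more covered numbered 1, 3, 3, 2, 5, 4 and 2 in the order 0h, 6h, 24h, 5d, flavopiridol, 6h GSK126 and 24h GSK126, and 0 for H2A.Z, where 3.29, 12.4, 9.12, 6.69, 13.2, 12.7, 6.20 and 1.29% of all genes were, with medians of 7.98, 27.5, 14.3, 20.9, 47.7, 37.8, 21.6 and 10.3%. A threshold of 20% gave 2 at 6h (26.9% of all genes), 1 at 24h (16.1%), 1 at 5d (13.3%), 4 with flavopiridol (22.8%), 4 at 6h GSK126 (29.6%), 1 at 24h GSK126 (12.9%) and 2 for H2A.Z (15.3%), and one of 80% gave 0 at 6h (3.48%) and for H2A.Z (2.52%). Trimming 1 kb from both ends, which drops the short genes Twist1 and S100a4, gave 0 for H2A.Z, and medians of 5.63% with flavopiridol, 16.9% at 6h GSK126 and 4.00% for H2A.Z. Regions at or above the median score gave medians of 3.67% at 6h, 3.00% with flavopiridol, 3.50% at 6h GSK126 and 8.49% for H2A.Z. With them Prrx2 and Pdgfrb stayed at 84.7% and 82.3% with flavopiridol, and S100a4 at 28.3%. Fap at 24h GSK126 went from 48.5 to 5.72%, Pdgfrb at 6h GSK126 from 46.1 to 7.01%, and Vim with flavopiridol from 26.1% to 0. Vim stayed at 26.1% at 6h GSK126. Region lists give no read depth, so a gene without a region may still hold tagged histone under the caller's threshold.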

Other observations

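Genes that mark sublineages of dermal fibroblasts were a list of 12, of which 8 were tested. At 6h Lef1, a transcription factor gene of the Wnt pathway used as a marker of papillary fibroblasts and dermal papilla, rose by 0.21. The ephrin receptor gene Ephb2 fell by 0.22, and over all genes tested 20.8% rose and 18.2% fell. The trunk dermis gene En1 stood at 15.9 CPM at 0h and did not pass (log2 -0.16 at 6h), and Crabp1, another papillary marker, stood at 37.0 CPM (log2 0.03). Mgp, Corin and Alpl had 4, 1 and 2 counts in all 9 libraries.

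Epithelial genes with counts did not move together at 6h, as Epcam rose by 0.83 from 1.46 CPM and the desmosome gene Dsp fell by 0.58 from 19.2 CPM. The wider caller setting deposited for 5d, with 1000-bp windows and gaps of 4000 bp, was used as an alternative for that time alone.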
